A study of Mus musculus with 8 samples.

Results

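The library of neurons isolated from mouse brain was compared with the library of glia isolated from mouse brain, over the genes that reached 10 TPM (a transcript abundance scaled for length and library size) or more in either of them. These were 11185 of the 29713 genes in the deposited tables, and the libraries were 2 of the 8 in the series. Of the genes, 7369 reached that level in neuron, 10013 in glia and 6197 in both. The smallest value that made a gene a member was 10 TPM, and the largest that did not was 9.99 TPM. The other libraries of the series were cortex, hippocampus, cerebellum, embryonic fibroblasts labelled ICR MEF and OG2 MEF and the library labelled R1 ESC.

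Neuron and glia both came from brain of strain C57, per the labels, and both were made from 1 ug of Trizol-extracted total RNA with the Illumina TruSeq kit. The labels do not state the age and sex of the animals, how many were used, any culture of the cells or the way they were isolated. Each preparation was 1 library, so their differences could not be checked against replicates and stand without p-values. Total expected counts were 3983575 in neuron and 5864673 in glia, at which 3 counts on a transcript of 2000 bases are worth 0.485 TPM and 0.528 TPM.

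The labels were set against marker genes of 10 cell types. All 10 neuronal markers reached 10 TPM in neuron and 9 were higher there, and their summed level was 4684 TPM in neuron and 451 TPM in glia. In glia the neuronal nuclear protein gene Rbfox3, the RNA-binding protein gene Elavl4 and the neurofilament gene Nefl were at 0. However, 3 of the 10 reached 10 TPM in glia. Stmn2 and Tubb3 had 288 TPM and 39.6 TPM there, and Map2, which was not called, had 122 TPM in neuron and 118 TPM in glia. The astrocyte markers summed to 426 TPM in neuron and 3071 TPM in glia, and the microglia markers to 90.04 TPM and 971 TPM. Of the astrocyte markers 6 of 10 were lower in neuron. Most of their sum in neuron was Aldoc, which was not called (359 TPM in neuron and 325 TPM in glia). Of the oligodendrocyte markers 1 of 10 was lower in neuron, and Opalin, a defining gene of mature oligodendrocytes, was at 0 in both libraries. Oligodendrocyte precursor markers summed to 18.2 TPM in neuron and 804 TPM in glia, with 3 of 8 lower in neuron; most of the sum was the lineage factor Olig1 (6.8 TPM and 631 TPM), while Sox10, a defining gene of the lineage, was at 0 in glia and the precursor receptor gene Pdgfra had 1.27 TPM there. The glia library also carried markers that the label does not name. Mural and smooth muscle genes summed to 21.1 TPM in neuron and 7101 TPM in glia, and fibroblast genes to 26 TPM and 1267 TPM. In each of these lists 5 of 8 genes were lower in neuron. Most of the mural sum was Acta2 (7.6 TPM and 4147 TPM) and Tagln (9.32 TPM and 2565 TPM), while Myh11, Rgs5 and Des had 1.59, 2.62 and 1.04 TPM in glia. Most of the fibroblast sum was Fn1 (8.63 TPM and 1018 TPM). Lum and Postn had 0.94 and 2.97 TPM in glia, and Dcn had 12.7 TPM in neuron and 2.92 TPM in glia. Genes of dividing cells summed to 18 TPM in neuron and 1016 TPM in glia. Endothelial markers summed to 2.55 TPM in neuron and 146 TPM in glia, nearly all of it from the transporter gene Slco1a4 (0.09 TPM and 135 TPM), and Cldn5 and Pecam1 were at 0 in glia. Of the erythroid markers the globin gene Hba-a2 was higher in neuron, with 22 counts in neuron and 0 in glia. The part of these cells in the differences below was not tested, and in bulk libraries fewer cells of a type cannot be told apart from less RNA per cell.

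Neurons fire and release transmitter, which takes ion pumps, gated channels, a regulated secretory pathway and a large supply of ATP. Astrocytes buffer potassium, take up glutamate and turn it into glutamine, store glycogen, oxidise fatty acids and export cholesterol. Microglia are the phagocytes of the brain, and both glial types respond to cytokines and to damage. The genes of these functions were gathered into 63 lists in 5 domains, metabolism, channels and pumps, receptors, adhesion, and trafficking. Of their 1738 genes 1730 were in the tables and 1229 were members.

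A gene is called higher or lower in neuron here when the higher library had at least 10 TPM and the libraries were at least 4-fold apart on TPM with 1 added. By this rule 10.4% of members were higher and 30.5% lower in neuron, and the median log2 ratio of neuron over glia was -0.95. The split depended on the scaling: 1163 were higher and 3412 lower on TPM, 1925 and 2102 after TMM factors of the TPM, and 1699 and 2616 on counts per library size without a length term (CPM). Folds are ratios of TPM, and values in brackets after a fold are its exact (Clopper-Pearson) 95% interval. These intervals cover counting error only, since reads without molecular identifiers are not independent molecules. Against a library without counts, "at least" marks the fold that 3 counts there would give.

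The ratio depended on transcript length. Of 10 equal groups of members by length, the shortest had effective lengths up to 806 bases and a median log2 ratio of 0.93, and 24.8% of it were higher in neuron and 12.8% lower. The longest, from 5257 bases, had a median of -2.08, and 6.26% were higher and 51.6% lower. The median went down at each step between them. Over the 11185 members, which are not independent replicates and share both libraries, Spearman's rho between length and log2 ratio was -0.34. Averaged over counts, the effective length of the source transcript was 2488 bases in neuron and 3409 bases in glia. No measure of RNA quality is in the labels, and whether the trend comes from the cells or from the RNA was not tested. Each ratio was therefore computed again after the median of 20 length bins had been subtracted from it. On that scale 14.6% of members were higher and 15.4% lower, around a median set to 0.00. A call that is lost by this step is named as such below, and counts in brackets after those of a list are those with the length trend removed.

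**Figure D1:**
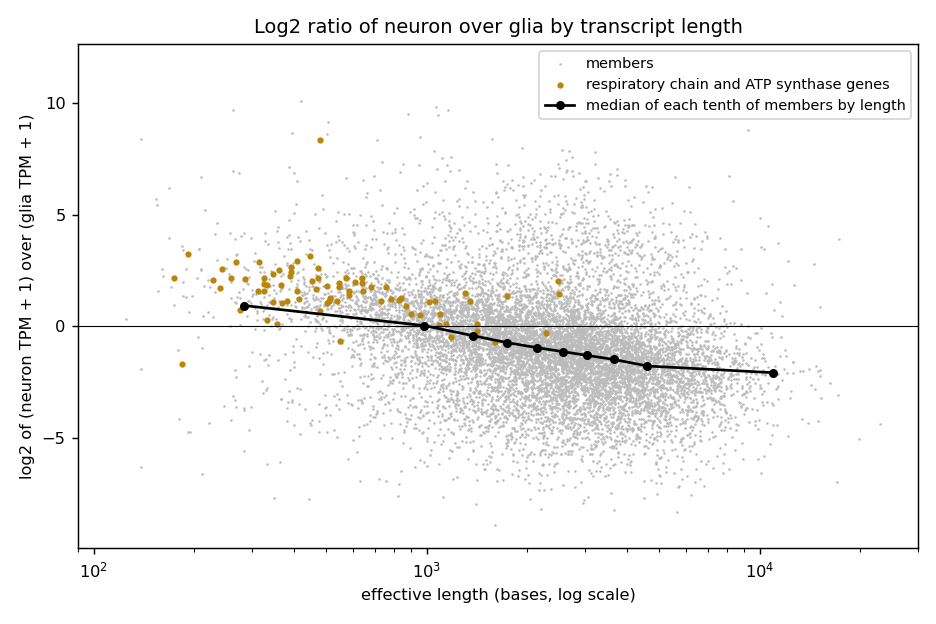
Each grey point is 1 of the 11185 members, at its effective length in bases (log scale) and its log2 ratio of neuron over glia on TPM with 1 added. The black line joins the medians of the 10 groups of members by length, which go down from 0.93 to -2.08, and the gold points are the genes of the respiratory chain and ATP synthase, most of which lie at the short end and above the line.

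The 5 domains took different shares of the calls. Of 309 metabolism genes 12.9% were higher in neuron and 21.7% lower, with a median log2 ratio of -0.09. Channels and pumps (139 genes) had 27.3% higher and 25.2% lower, and a median of -0.40. Receptors (144 genes) had 24.3% higher and 54.2% lower, and adhesion genes (192) had 16.7% higher and 48.4% lower. In trafficking (447 genes) 17.2% were higher and 28.9% lower. After removal of the length trend the higher and lower genes were 30 (9.71%) and 47 (15.2%) in metabolism and 60 (43.2%) and 22 (15.8%) in channels. They were 47 (32.6%) and 52 (36.1%) in receptors and 58 (30.2%) and 63 (32.8%) in adhesion. In trafficking they were 100 (22.4%) and 60 (13.4%). Over all members the shares on that scale were 14.6% and 15.4%, and neither share of metabolism was above these.

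**Figure D2:**
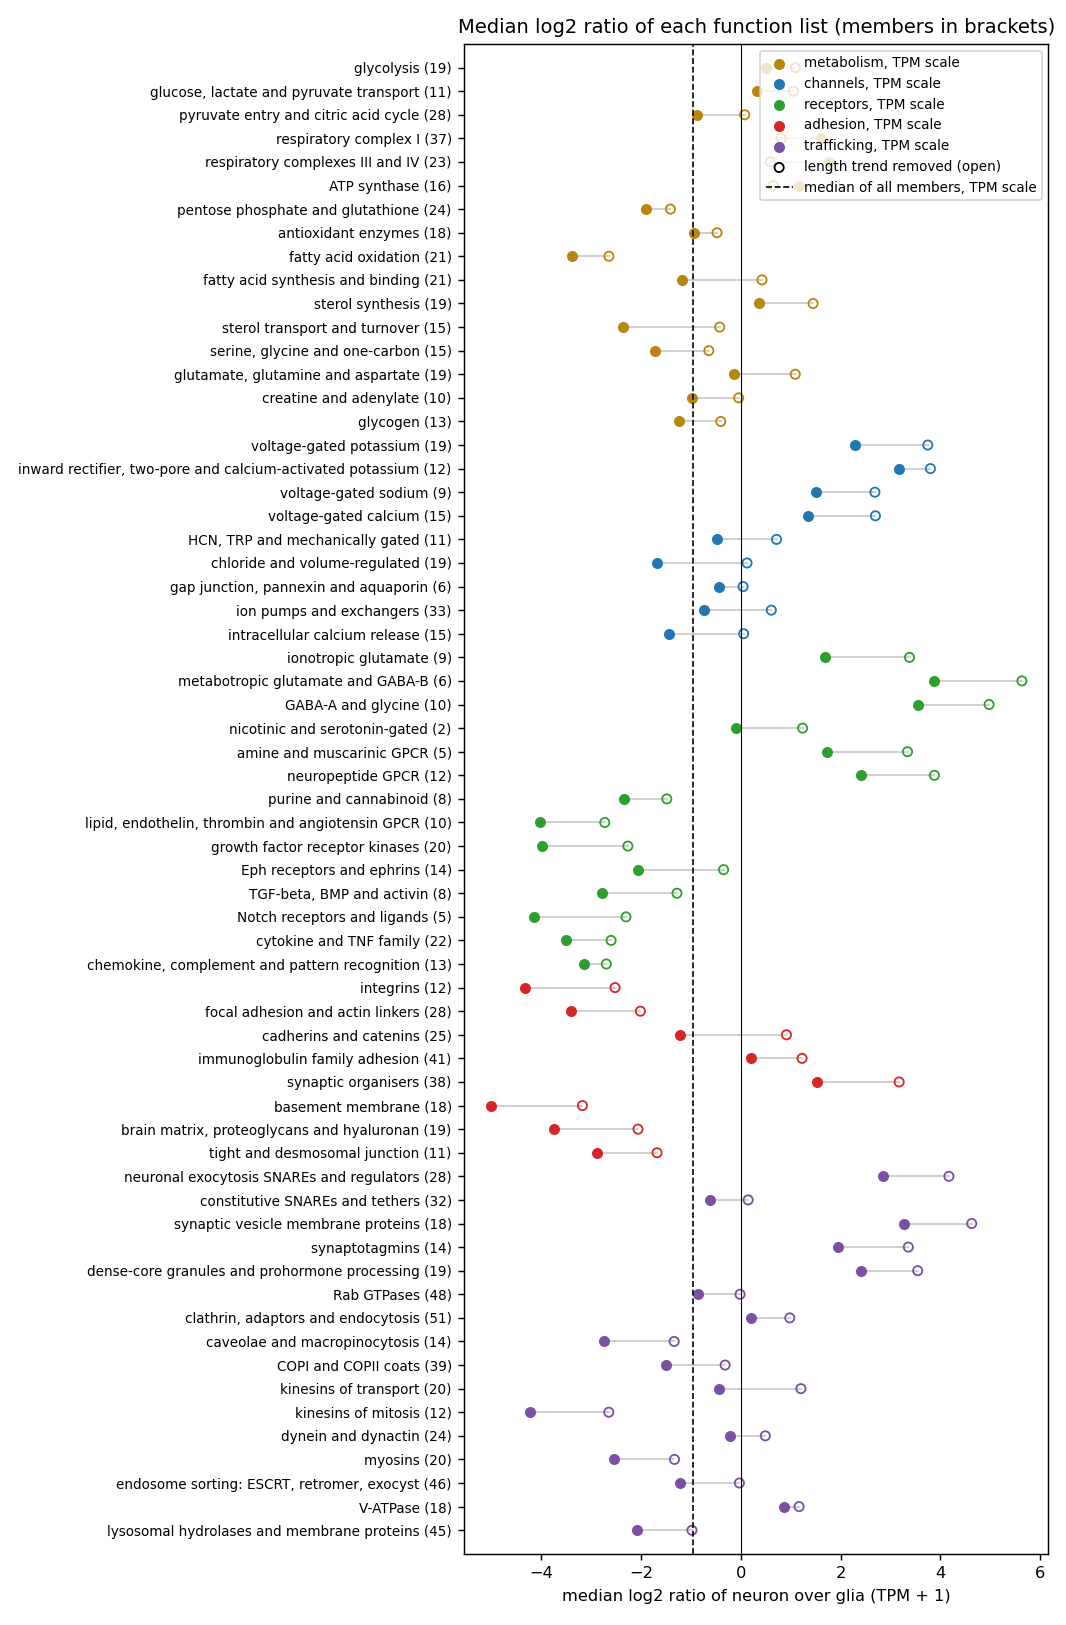
Median log2 ratio of neuron over glia for each of the 63 lists, with the number of members in brackets. Filled points are on the TPM scale and open points have the length trend removed, and the dashed line is the median of all members (-0.95). Lists of synaptic receptors, vesicles and exocytosis lie to the right on both scales, and basement membrane, integrins, mitotic kinesins and fatty acid oxidation to the left on both.

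Glycolysis, which turns glucose into pyruvate in the cytosol, had 1 higher and none lower of 19 by the 4-fold rule. Its median log2 ratio was 0.50, above the -0.95 of all members, and 13 genes lay above 0. With the length trend removed the median was 1.10, 18 lay above 0 and 5 were higher. The higher gene was Eno2, the neuronal enolase, at 345 TPM in neuron and 20.03 TPM in glia, a 17.2-fold difference (14.04 to 21.3). Gapdh, whose reads may be shared with pseudogenes, had 5628 TPM in neuron and 3643 TPM in glia, and pyruvate kinase (Pkm) 917 TPM and 939 TPM. Among the transporters that feed the pathway, Slc2a6 was 16.0-fold (11.1 to 23.8) higher in neuron, with 87.5 TPM in neuron and 5.48 TPM in glia. The glucose carrier Slc2a3 had 87.9 TPM in neuron and 20.7 TPM in glia, with some reads shared between genes. In the other direction stood Slc16a1, the monocarboxylate carrier that moves lactate, with 15.4 TPM in neuron and 117 TPM in glia; that call is lost with the length trend removed.

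Past pyruvate, the citric acid cycle and its entry enzymes had no higher gene and 4 lower genes among 28, and their median of -0.89 was close to that of all members. Idh2, the mitochondrial isocitrate dehydrogenase that makes NADPH, had 11.4 TPM in neuron and 343 TPM in glia (30.1-fold lower, 22.8 to 40.6). Suclg2, the GTP-forming succinyl-CoA ligase subunit, had 2.90 TPM and 87.9 TPM, and Pdk4, a kinase that shuts off pyruvate dehydrogenase, had 1 count in neuron and 184 in glia (ratio 197, 35.9 to 8037). Pcx, pyruvate carboxylase, which refills the cycle, was 5.89-fold lower, a call lost with the length trend removed.

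Oxidative phosphorylation, the work of the membrane complexes that make ATP, had many higher genes on the TPM scale. Complex I had 11 higher and none lower of 37, and 36 had a log2 ratio above 0. Complexes III and IV had 8 higher and none lower of 23, and ATP synthase 4 higher and none lower of 16. The medians were 1.60, 1.77 and 1.17. These transcripts are short, with median effective lengths of 512, 448 and 520 bases. After removal of the length trend the medians were 0.81, 0.59 and 0.65, and the numbers of higher genes were 1, 2 and 0. Of the same genes 32 of 37, 17 of 23 and 11 of 16 still lay above 0 on that scale. Together the lists took 2.57%, 3.23% and 2.34% of TPM in neuron, and 0.774%, 0.918% and 0.856% in glia.

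Among single subunits, Ndufv3 of complex I had 1564 TPM in neuron and 206 TPM in glia, a 7.58-fold difference (6.68 to 8.63). Uqcr11 of complex III had 2413 TPM in neuron and 330 TPM in glia, and Atp5k of ATP synthase 3243 TPM and 343 TPM. All of these calls are lost with the length trend removed. Ndufa11, a complex I subunit with a longer transcript, kept its call, with 121 TPM in neuron and 29.3 TPM in glia.

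Cox6a2, the isoform of a cytochrome c oxidase subunit known from heart and skeletal muscle, stood apart from the rest of the chain (chr7:128205435-128206387, mm10). It had 321 TPM from 491 counts in neuron and 0 counts in glia, at least 140-fold higher, and remained called with the length trend removed (log2 ratio 7.07). Its level was 15.1 TPM in cortex, 5.30 TPM in hippocampus and 1.71 TPM in cerebellum, and 2.93 TPM and 0.64 TPM in the fibroblasts. Cox7a1, another isoform known from muscle, had 9.68 TPM in neuron and 33.5 TPM in glia, from 6 and 16 counts, and was lower only with the length trend removed.

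Fatty acid oxidation, the mitochondrial breakdown of fatty acids, ran the other way. None of its 21 members was higher in neuron and 14 were lower, with a median log2 ratio of -3.38 (12 lower and -2.64 with the length trend removed). Cpt1a, which makes the acylcarnitine that enters mitochondria (chr19:3322334-3385733), had 2 counts in neuron and 1222 in glia, at 0.16 TPM and 105 TPM (ratio 656, 185 to 5545). Acadl, the dehydrogenase of long-chain acyl-CoA, had 2.58 TPM in neuron and 132 TPM in glia, and Acads, that of short chains, 1.33 TPM and 52.7 TPM. Decr1, needed for unsaturated chains, was 39.2-fold (21.1 to 82.8) lower. The fibroblast libraries had a like level of Acads, 46.7 TPM in ICR MEF and 46.1 TPM in OG2 MEF.

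Fatty acid synthesis and binding was mixed, with 3 higher and 6 lower genes of 21 (5 and 5 with the length trend removed). Carrier proteins that bind fatty acids in the cytosol were on both sides. Fabp3 had 411 TPM in neuron and 3.37 TPM in glia (122-fold, 55.8 to 333), and Fabp5 669 TPM and 142 TPM, while Fabp7, the carrier of radial glia and astrocytes, had 125 TPM in neuron and 2900 TPM in glia. Elovl4, which builds very long chains, was 5.999-fold higher in neuron. Acsbg1, an acyl-CoA synthetase, was 68.3-fold lower, and the desaturase Fads2 was 17.2-fold lower.

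Cholesterol genes split between making and moving the molecule. Synthesis had 2 higher and no lower genes of 19, at a median log2 ratio of 0.37 (1.45 with the length trend removed). Mvd, of the mevalonate pathway, had 196 TPM in neuron and 20.3 TPM in glia (9.66-fold, 7.78 to 12.1). Its level in neuron was also above cortex, hippocampus and cerebellum, which had 22.2, 19.1 and 24.4 TPM. Pmvk, the enzyme before it, was called at 4.06-fold higher, which is lost with the length trend removed. Of 15 genes of sterol transport and turnover 8 were lower in neuron and 1 was higher (5 and 2 with the length trend removed). Abca1, which exports cholesterol to lipoproteins, had 0.42 TPM in neuron and 135 TPM in glia (321-fold, 189 to 608). Lcat, which esterifies exported cholesterol, had 1.92 TPM and 70.1 TPM. The higher gene was Cyp46a1, the brain 24-hydroxylase by which neurons shed cholesterol, with 186 TPM in neuron and 14.7 TPM in glia.

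Genes that handle oxidants were lower or did not pass the rule, with 1 exception. Of 24 genes of the pentose phosphate and glutathione pathways 11 were lower and 1 higher in neuron, and of 18 antioxidant enzymes 7 were lower and none higher. Lower counts with the length trend removed were 8 and 5. On the TPM scale the lower shares were 45.8% and 38.9%, against 30.5% of all members. The median log2 ratio of the antioxidant enzymes, -0.93, was close to the -0.95 of all members, and 8 of the 18 lay above 0. That of the pentose phosphate and glutathione genes was -1.91. The glutathione transferase Gstm1 had 70.4 TPM in neuron and 1408 TPM in glia (20.01-fold, 17.6 to 22.9). Gpx8, a peroxidase of the endoplasmic reticulum, was 138-fold lower, and Gclm, a subunit of the enzyme that starts glutathione synthesis, 12.2-fold lower. Prdx6, a peroxiredoxin of astrocytes, had 105 TPM in neuron and 1599 TPM in glia, and heme oxygenase Hmox1 13.5 TPM and 237 TPM. Mgst3, a microsomal glutathione transferase, was the gene on the other side, with 645 TPM in neuron and 19.2 TPM in glia.

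Genes of glutamate, glutamine and GABA metabolism differed in both directions, with 5 higher and 4 lower of 19. Gad1, which makes GABA, had 63.8 TPM in neuron and 0.99 TPM in glia (64.5-fold, 27.4 to 199). Its partner Gad2 had 19.5 TPM from 276 counts in neuron, and 0.67 TPM from 2 counts in glia (ratio 29.1, 8.03 to 243), with an effective length 4.32 times as long in neuron. Bcat1, which transaminates branched-chain amino acids, was 57.8-fold higher, and Gls2, a glutaminase, had 49 counts in neuron and 1 in glia. On the other side Glul, glutamine synthetase, had 33.5 TPM in neuron and 470 TPM in glia, Glud1, glutamate dehydrogenase, was 10.1-fold lower and Oat, ornithine aminotransferase, 8.86-fold lower.

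3 smaller metabolic lists had shares of lower genes not far from the 30.5% of all members. Serine, glycine and one-carbon genes had 5 lower and none higher of 15 (2 lower with the length trend removed), led by Gldc, of the glycine cleavage system (0.27 TPM in neuron, 78.1 TPM in glia), and the folate enzyme Aldh1l1 (25.1-fold lower). Glycogen genes had 5 lower and none higher of 13 (2 lower with the length trend removed), among them Pygb, the brain phosphorylase, at 24 TPM in neuron and 377 TPM in glia. In the creatine and adenylate list (1 higher and 2 lower of 10) the kinases that store energy as phosphocreatine parted. Mitochondrial Ckmt1 had 243 TPM in neuron and 8.41 TPM in glia, and cytosolic Ckb had 1121 TPM and 5679 TPM, a 5.07-fold difference that is lost with the length trend removed.

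**Figure D3:**
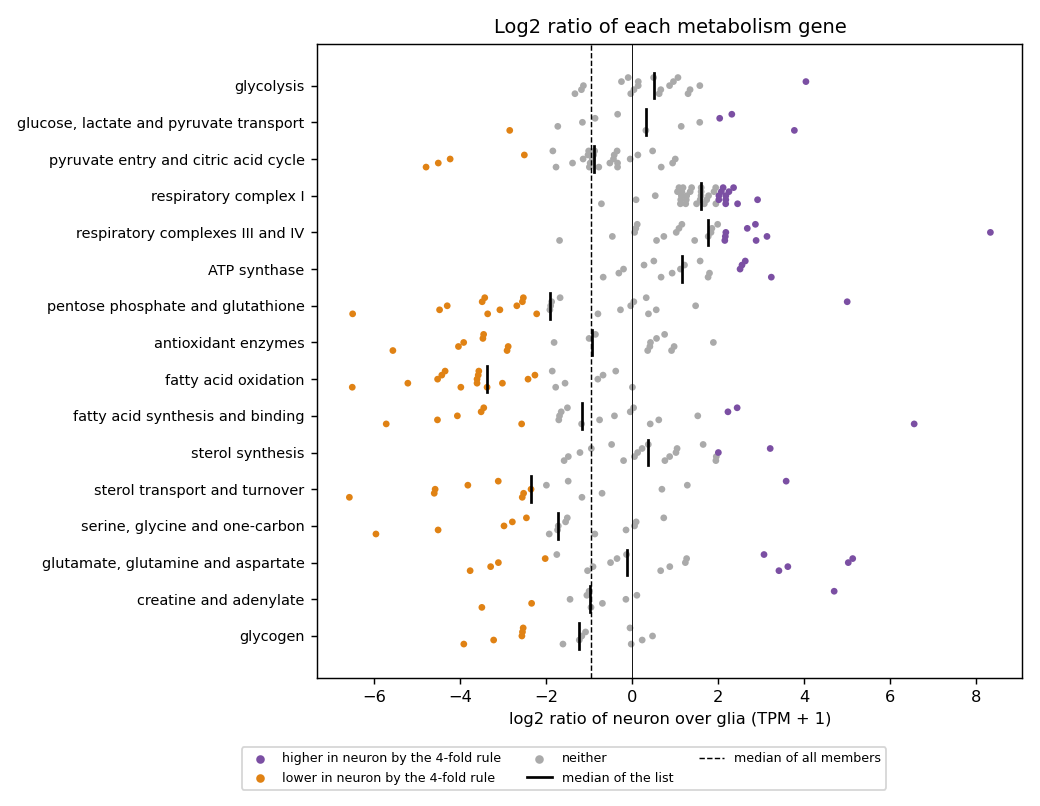
Log2 ratio of neuron over glia for every member of the 16 metabolism lists, with higher genes in purple, lower genes in orange, the median of each list as a black bar and that of all members (-0.95) as a dashed line. Respiratory chain genes crowd between about 1 and 3 with Cox6a2 alone at 8.33, and most fatty acid oxidation genes lie left of the dashed line.

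Potassium channels, which set the resting potential and end the action potential, were the largest group of higher channels. Of 19 voltage-gated potassium members 10 were higher and 3 lower, with a median log2 ratio of 2.29. Kcnh3 had 79.3 TPM in neuron and 0.21 TPM in glia, and Kcnc4, a fast-repolarising channel, 33.3 TPM and 0.38 TPM. Kcnip2, which binds Kv4 channels, had 248 counts in neuron and 1 in glia (ratio 219, 39.6 to 8825). Kcne1l, a small accessory subunit, was lower in neuron at 1.41 TPM, against 60.9 TPM in glia. So was Kcnd3, a Kv4 channel, though not with the length trend removed.

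Inward rectifiers separated the preparations in both directions. Kcnj4 had 96.8 TPM in neuron and 1.26 TPM in glia (76.8-fold, 37.0 to 191), and Kcnj3, a channel opened by G proteins, 23.1 TPM and 0.18 TPM. Kcnj10, the Kir4.1 channel by which astrocytes clear potassium (chr1:172341210-172374085), had 1.73 TPM in neuron and 254 TPM in glia (147-fold, 102 to 221). It was near 0 in the fibroblasts, at 0.07 TPM and 0.00 TPM. In all, 7 of 12 rectifying, tandem-pore and calcium-activated channels were higher and 3 lower.

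Sodium and calcium channels drive the action potential and transmitter release. Their lists, which also hold accessory and associated genes, had 3 and 6 higher genes among 9 and 15 members. Scn8a, the channel of axon initial segments and nodes, had 28.6 TPM in neuron and 0.29 TPM in glia (98.5-fold, 52.1 to 218). Scn2a, with some reads shared, was 8.78-fold higher. Cacna1b, the N-type channel of nerve terminals, had 42.7 TPM in neuron and 0.23 TPM in glia, with an effective length 0.29 times as long in neuron. Cacng3 and Cacng2, which carry AMPA receptors to the synapse, had 467 and 377 counts in neuron and 0 in glia. On the scale without the trend 6 genes of the sodium list and 10 of the calcium list were higher. The former included Fgf12 and Fgf13. Cacng2, Cacng3 and Cacng4 were among the higher genes of the calcium list on both scales.

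Chloride and volume-regulated channels had no higher gene and 7 lower genes of 19, near the share over all members. With the length trend removed 1 was higher and 4 were lower, and the median log2 ratio of -1.68 became 0.13. Clic1 had 7.44 TPM in neuron and 362 TPM in glia (48.6-fold, 33.6 to 72.6), and Clic4 5.95 TPM and 246 TPM. Both were high in the fibroblasts too, where Clic1 had 464 TPM and 512 TPM. Mechanically gated and TRP channels had 2 higher and 5 lower of 11 (4 and 4). Trpm2 and the pacemaker channel Hcn2 were 21.7-fold and 11.5-fold higher in neuron, while the polycystin genes Pkd1 and Pkd2 and the stretch-gated Piezo1 were 34.8-fold, 52.1-fold and 21.7-fold lower. Of the junction and water channels, Aqp4 of astrocyte endfeet had 2.24 TPM in neuron and 231 TPM in glia, and connexin 43 (Gja1) 3.85 TPM and 154 TPM. Panx2 had 184 TPM in neuron and 0.77 TPM in glia, with an effective length 0.22 times as long in neuron.

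The pumps and exchangers that restore ion gradients had 9 higher and 9 lower of 33, and 14 higher and 6 lower with the length trend removed, when the median log2 ratio of -0.73 became 0.61. Fxyd7, a small regulator of the sodium pump, had 679 TPM in neuron and 0.72 TPM from 1 count in glia (ratio 944, 169 to 37211). Slc12a5, the KCC2 cotransporter that keeps neuronal chloride low, was 78.4-fold higher. The bicarbonate cotransporter Slc4a4, which regulates pH in astrocytes, had 0.95 TPM in neuron and 126 TPM in glia (132-fold, 83.4 to 223).

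Genes of calcium release from stores had no higher and 4 lower members of 15, near the share over all members. With the length trend removed 2 were higher and 1 lower, and the median log2 ratio of -1.44 became 0.06. Micu2, a regulator of the mitochondrial uniporter, had 10.4 TPM in neuron and 97.0 TPM in glia. Itpr1, the inositol trisphosphate receptor, had 6.38 TPM in neuron and 30.2 TPM in glia. Its log2 ratio of -2.08 became 0.06 with the length trend removed, so its direction depends on that step.

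Receptors for glutamate and GABA, the main excitatory and inhibitory transmitters, were mostly higher in neuron. All 6 metabotropic glutamate and GABA-B members were higher, with a median log2 ratio of 3.88. Of 10 GABA-A and glycine receptor members 6 were higher and none lower (10 higher with the length trend removed), and of 9 ionotropic glutamate members 4 were higher and 1 lower. Grin1, the obligatory NMDA receptor subunit (chr2:25291181-25319187), had 286 TPM in neuron and 0.84 TPM in glia (340-fold, 179 to 743). Gria1 of the AMPA receptor had 72.2 TPM in neuron and 8.08 TPM in glia. Gria3 went the other way, with 18.7 TPM in neuron and 92.9 TPM in glia, a call lost with the length trend removed. Gabra5, an extrasynaptic GABA-A subunit, had 62.4 TPM and 0.43 TPM (145-fold, 49.3 to 706), and the GABA-A gene Gabrd and the glycine receptor gene Glra2 had 121 and 191 counts in neuron and 0 in glia. Grm2, a presynaptic metabotropic receptor, had 150 counts in neuron and 0 in glia, and Grm5 335 and 4.

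Among the other G protein-coupled receptors directions differed by the class of ligand. Of 12 neuropeptide receptor members, accessory subunits included, 9 were higher and 2 lower. The neurotensin receptor Ntsr1, the nociceptin receptor Oprl1 and the corticotropin-releasing hormone receptor Crhr1 had 242, 125 and 124 counts in neuron, and 0 in glia. Ramp3, an accessory subunit of calcitonin-family receptors, had 48.1 TPM in neuron and 0.68 TPM in glia. The bradykinin receptor Bdkrb2 was lower, at least 34.5-fold, from 0 counts in neuron and 93 in glia. The muscarinic receptor Chrm1 had 42.8 TPM in neuron and 0.12 TPM in glia, and the histamine autoreceptor Hrh3 15.0 TPM and 0.28 TPM, while the adrenergic receptor Adrb1 had 1.11 TPM and 36.8 TPM.

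Receptors for lipids, thrombin, endothelin and angiotensin were lower in neuron for 10 of 10 members, with a median log2 ratio of -4.02 (6 lower with the length trend removed). The thrombin receptor F2r (chr13:95601803-95618487) had 2.57 TPM in neuron and 341 TPM in glia (133-fold, 89.6 to 205), and it had 221 TPM in ICR MEF and 186 TPM in OG2 MEF. Lpar1, for lysophosphatidic acid, was 107-fold lower, and S1pr1, for sphingosine phosphate, 46.1-fold lower. Purine and cannabinoid receptors had 2 higher and 4 lower of 8 (2 and 3). P2ry2 had 1 count in neuron and 338 in glia, whereas the adenosine receptor Adora2a and the cannabinoid receptor Cnr1 were higher in neuron, at 12.01 TPM and 15.4 TPM, against 0.30 TPM and 1.27 TPM in glia.

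Growth factor receptor kinases, which carry signals for growth, survival and migration, were lower for 17 of 20 members (11 with the length trend removed). Ddr1, a collagen receptor, had 8.68 TPM in neuron and 430 TPM in glia (49.6-fold, 40.3 to 61.7), and Fgfr2, with some reads shared, 4.31 TPM and 166 TPM. The related receptor Fgfrl1, which lacks the kinase domain, was 89.9-fold lower. Ltk was the higher gene, with 74 counts in neuron and 0 in glia. TGF-beta and BMP receptors were lower for 6 of 8 members and Notch receptors and ligands for 4 of 5. Bmpr1a had 3.01 TPM in neuron and 189 TPM in glia, Tgfbr2 0.50 TPM and 41.9 TPM, and Notch2 0.25 TPM and 68.6 TPM. Of these lists 2 and 3 genes were lower once the trend was removed. Ephrins and their receptors, which guide axons, had 3 higher and 7 lower of 14, which turned to 5 higher and 2 lower with the length trend removed, with Efnb3 70.7-fold higher and Ephb4, from 2 counts in neuron, 97.3-fold (26.8 to 815) lower.

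Immune receptors were mostly lower. Cytokine and TNF family receptors had 14 lower and 1 higher of 22, and chemokine, complement and pattern recognition receptors had 10 lower and none higher of 13. Lower counts with the length trend removed were 13 and 8. Tnfrsf1a, the TNF receptor, had 2.43 TPM in neuron and 130 TPM in glia (53.5-fold, 32.1 to 95.9), and Il6st, the shared IL-6 family subunit, 4.05 TPM and 151 TPM. The exception was Cntfr, the binding subunit for ciliary neurotrophic factor, with 23.7 TPM in neuron and 4.83 TPM in glia. Cx3cr1, the fractalkine receptor of microglia, had 4 counts in neuron and 418 in glia. The microglia markers, which include Cx3cr1 itself, moved with this group, at 90.04 TPM in neuron and 971 TPM in glia in sum. None of the markers was at 0 in either library, and their part in this group was not tested.

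**Figure D4:**
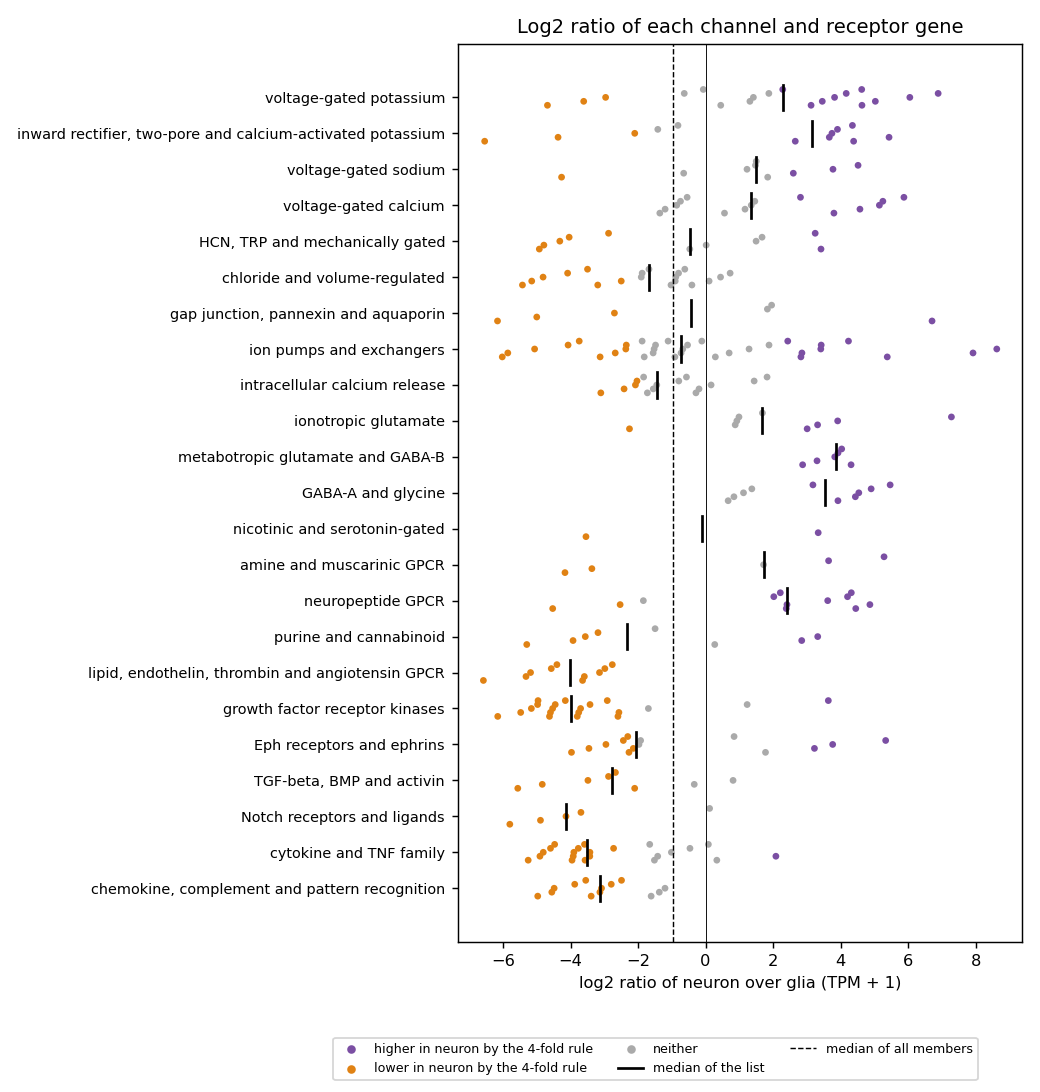
Log2 ratio of neuron over glia for every member of the 9 channel lists (upper rows) and 14 receptor lists (lower rows), coloured as in the plot of metabolism genes. Transmitter receptors lie to the right, with all 6 metabotropic glutamate and GABA-B genes in purple, and lipid, growth factor, Notch and immune receptors lie mostly left of the dashed median of all members.

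Genes of adhesion to the matrix were mostly lower in neuron. Every one of 12 integrin members was lower, with a median log2 ratio of -4.32 (9 lower and a median of -2.52 with the length trend removed). Itgb1, the common beta chain (chr8:128685654-128733200), had 15.0 TPM in neuron and 1203 TPM in glia (80.3-fold, 69.0 to 94.1). Itga1, a collagen-binding alpha chain, had 1 count in neuron and 1446 in glia. Basement membrane genes were lower for 15 of 18 (12 with the length trend removed), with Col4a5 at 0.37 TPM in neuron and 179 TPM in glia, Lamb2 at 1.24 TPM and 223 TPM, and Nid2, whose reads were in part shared, at 2 counts and 1809. In the brain matrix list 13 of 19 were lower and 1 higher (10 and 4 with the length trend removed). Sparc had 31.3 TPM in neuron and 3706 TPM in glia, and the proteoglycan Bgn 0.43 TPM and 229 TPM. Cspg5, a proteoglycan of neural membranes, was the higher gene, with 121 TPM in neuron and 17.4 TPM in glia.

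Linkers between integrins and actin were mostly lower too. Of 28 focal adhesion genes 19 were lower and 2 higher (14 and 3 with the length trend removed). Vinculin (Vcl) had 0.64 TPM in neuron and 213 TPM in glia (333-fold, 181 to 697), with some reads shared, Tns3 0.80 TPM and 203 TPM, and Fermt2, which activates integrins, 8.65 TPM and 215 TPM. The myosin light chain gene Myl9 had 4.8 TPM in neuron and 1117 TPM in glia. The higher genes were Evl, an actin-elongating protein (203 TPM in neuron, 33.7 TPM in glia), and Actn2, an actinin of muscle and dendritic spines (12.1 TPM and 0.91 TPM). Beside these groups stand the mural and smooth muscle markers, of which 5 of 8 were lower in neuron, with a summed level of 21.1 TPM in neuron and 7101 TPM in glia. The fibroblast markers, of which 5 of 8 were lower, summed to 26 TPM and 1267 TPM. Desmin (Des), a defining mural gene, was at 0 in neuron and at 7 counts in glia, and the part of either cell type in the difference was not tested.

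Promoters of the adhesion and contractile genes were searched for the CArG box, the binding sequence of serum response factor, on both strands of the 300 bases around each RefSeq start site (GRCm38.p6, 250 before and 50 after). A match lay in 1.81% of the promoters of all 27025 genes in that table, in 1.02% of the 784 higher genes and in 1.83% of the 2617 lower genes with a promoter there. Of 322 lower genes in the function lists 8 had one, among them Vcl, Fermt2 and Myl9, chosen here after their values were seen, whose windows of 50 bases are shown with the box in capitals. Vcl lies at chr14:20929151-20929200 on the plus strand, Fermt2 at chr14:45530240-45530289 on the minus strand and Myl9 at chr2:156775283-156775332 on the plus strand. A match describes the letters and is not evidence of binding.
Vcl: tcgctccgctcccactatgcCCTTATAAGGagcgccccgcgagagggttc
Fermt2: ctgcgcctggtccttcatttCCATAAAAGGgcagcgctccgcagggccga
Myl9: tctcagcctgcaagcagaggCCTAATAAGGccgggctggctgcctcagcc

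Adhesion between cells was divided. Of 38 synaptic organisers, the proteins that align both sides of a synapse, 15 were higher and 5 lower, and with the length trend removed 27 were higher and 1 lower. Lrrtm3, a postsynaptic partner of neurexins, had 115 counts in neuron and 0 in glia. Cbln1, a secreted organiser, had 191 counts in neuron and 1 in glia, and Nptx2, a pentraxin that gathers AMPA receptors, had 56.5 TPM in neuron and 2.39 TPM in glia. Clstn3, a synaptic cadherin-family protein (chr6:124430759-124464794), had 109 TPM in neuron and 0.20 TPM from 2 counts in glia (ratio 544, 150 to 4481), whereas the catenin Ctnna1 of adherens junctions had 3.48 TPM in neuron and 455 TPM in glia. Immunoglobulin family members had 10 higher and 11 lower of 41, and 15 higher and 8 lower with the length trend removed. Icam5, an adhesion protein of forebrain dendrites with some reads shared, was 105-fold higher, and Cntn1 9.52-fold higher. Mcam had 1 count in neuron and 759 in glia. Tight and desmosomal junction genes had 8 lower and none higher of 11 (4 lower with the length trend removed), such as Tjp1 at 3.01 TPM in neuron and 189 TPM in glia.

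The release machinery gave the largest share of higher genes in trafficking. Of 28 neuronal SNAREs and regulators of exocytosis 19 were higher and 1 lower, with a median log2 ratio of 2.86 (4.17 with the length trend removed). Cplx1, the complexin that clamps the fusion complex (chr5:108518554-108550024), had 333 TPM from 2083 counts in neuron and 0 counts in glia, at least 351-fold higher. Rph3a, an effector of Rab3, had 101 TPM in neuron and 0.09 TPM from 1 count in glia (ratio 1122, 202 to 44560). Of 18 vesicle membrane genes 12 were higher and 3 lower (13 and 1). Slc32a1, which loads GABA into vesicles, had 388 counts in neuron and 0 in glia, and Syn1, a phosphoprotein that tethers vesicles, 326 TPM and 8.22 TPM. The lower ones, Syngr2, Sypl and Scamp2, are broadly expressed relatives of vesicle proteins, and the calls of Sypl and Scamp2 are lost with the length trend removed. The list of synaptotagmins, a family that includes calcium sensors, and of their relatives had 7 higher and 4 lower of 14 (9 and 2). Syt4 led the higher ones, with 144 TPM in neuron and 0.10 TPM from 1 count in glia. The lower ones were Sytl2, Syt17, Esyt1 and Esyt2, and the calls of Esyt1 and Esyt2 are lost with the length trend removed.

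Promoters were also searched for the RE1 element, the site through which the repressor REST keeps neuronal genes silent in other cells. The search used its parts TTCAGCACC and GGACAGCGC, with 2 bases between them and at most 3 mismatches in the 18 scored letters, on both strands. A match lay in 0.133% of the 27025 promoters, in 0.275% of the 8726 members with one, in 13 of 784 higher genes (1.66%) and in none of 2617 lower genes. Of the higher genes in the function lists 5 of 164 had one, Gad2, Hrh3, Rph3a, Scamp5 and Syn1. Their windows are shown because they serve transmitter synthesis, presynaptic control and vesicles, with the match in capitals. Scamp5, a secretory carrier protein of vesicles, had 323 TPM in neuron and 58.8 TPM in glia. The windows lie at chr2:22622141-22622200 on the plus strand (Gad2) and, on the minus strand, at chr2:180104554-180104613 (Hrh3), chr5:121009594-121009653 (Rph3a), chr9:57468175-57468234 (Scamp5) and chrX:20921111-20921168 (Syn1). In Hrh3 and Rph3a the element reads on the opposite strand to the gene.
Gad2: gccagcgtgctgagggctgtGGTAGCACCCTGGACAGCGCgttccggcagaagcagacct
Hrh3: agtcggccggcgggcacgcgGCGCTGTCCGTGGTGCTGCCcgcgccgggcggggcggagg
Rph3a: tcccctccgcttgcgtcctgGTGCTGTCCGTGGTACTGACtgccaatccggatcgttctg
Scamp5: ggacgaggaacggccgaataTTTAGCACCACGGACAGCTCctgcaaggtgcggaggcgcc
Syn1: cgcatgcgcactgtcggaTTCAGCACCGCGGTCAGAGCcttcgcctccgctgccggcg

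Dense-core granules store peptides and their processing enzymes, and their list had 11 higher and 6 lower genes of 19 (11 and 1 with the length trend removed). The list also holds Secisbp2l, which is not a granule gene. It counts among the 6 lower ones, a call lost with the length trend removed. Chga, chromogranin A, had 318 TPM in neuron and 2.51 TPM in glia (127-fold, 72.5 to 246), and Pcsk1n, an inhibitor of a prohormone convertase, 922 TPM and 29.99 TPM. Scg2, secretogranin II, had 130 TPM in neuron and 22.7 TPM in glia, and Chgb, chromogranin B, 135 TPM and 12.2 TPM. The convertases Pcsk6 and Furin of the constitutive pathway were lower, with 1.00 TPM and 4.93 TPM in neuron, and 115 TPM and 45.5 TPM in glia; the Furin call is lost with the length trend removed. Both Scg2 and Chgb hold the cyclic AMP response element TGACGTCA close before their start sites, and the windows around it are shown for that reason (Scg2, chr1:79440067-79440114, minus strand; Chgb, chr2:132781550-132781597, plus strand). That element is common: it lay in 3.70% of the promoters of higher genes, 2.71% of those of lower genes and 3.74% of those of all members.
Scg2: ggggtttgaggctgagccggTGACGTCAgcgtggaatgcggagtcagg
Chgb: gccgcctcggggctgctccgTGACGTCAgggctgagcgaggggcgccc

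Recycling of membrane was mixed. Of 51 clathrin, adaptor and endocytosis genes 10 were higher and 10 lower (16 and 2 with the length trend removed). Dnm1, the dynamin that cuts synaptic vesicles free, had 279 TPM in neuron and 1.77 TPM in glia (157-fold, 98.1 to 270), and Ap3b2, the neuronal AP-3 subunit, 255 TPM and 5.42 TPM. Dab2, an endocytic adaptor, was 93.8-fold lower. Caveolae, membrane pits rich in cholesterol, were lower for 8 of 14 genes (6 with the length trend removed), with Cav1 at 3.02 TPM in neuron and 408 TPM in glia and Cavin1 at 2.82 TPM and 338 TPM. Of 48 Rab GTPases, the switches of vesicle traffic, 8 were higher and 10 lower (10 and 4). Rab3a of synaptic vesicles had 718 TPM in neuron and 20.7 TPM in glia, Rab15, of recycling endosomes, was 221-fold (75.8 to 1081) higher, and Rab31, of the Golgi and endosomes, had 12.99 TPM in neuron and 912 TPM in glia.

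Steps shared by all cells differed less. COPI and COPII coats had 1 higher and 10 lower of 39, constitutive SNAREs and tethers 1 and 8 of 32, and endosome sorting 1 and 13 of 46. Their lower counts were 4, 4 and 2 once the trend was removed. The V-ATPase, which acidifies vesicles and lysosomes, had a median log2 ratio of 0.87, with 1 higher and 2 lower of 18. Lysosomal genes, in contrast, had 24 lower and none higher of 45, with a median of -2.09 (12 lower and -0.98 with the length trend removed). The cysteine protease Ctss, which microglia express strongly, had 2.44 TPM in neuron and 158 TPM in glia, and Asah1, acid ceramidase, 9.74 TPM and 279.98 TPM. Of the microglia markers, which include Ctss itself, 8 of 10 were lower as well. Marker set and list thus share genes, and the part of the markers in this list was not tested.

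Among the motors that carry cargo on microtubules, 3 of 20 transport kinesins were higher and 5 lower. The balance turned with the length trend removed, when 8 were higher and 1 lower and the median log2 ratio of -0.44 became 1.21. Kif5a, the neuronal kinesin-1 heavy chain (chr10:127225696-127263348), had 222 TPM in neuron and 1.96 TPM in glia (113-fold, 81.0 to 164), Kif17 of dendrites 12.8 TPM and 0.61 TPM, and Kif1c 4.60 TPM and 124 TPM. The dynein intermediate chain Dync1i1 had 355 counts in neuron and 2 in glia. Kinesins of mitosis were lower for 12 of 12 members (10 with the length trend removed), with Kif11, which drives spindle poles apart, at 3 counts in neuron and 690 in glia. All 8 markers of dividing cells were lower as well, with summed levels of 18 TPM in neuron and 1016 TPM in glia. Myosins were lower for 12 of 20 and higher for 1 (6 and 2 with the length trend removed), and Myo5b, a motor of recycling endosomes, was the higher one at 33.6 TPM in neuron and 2.54 TPM in glia.

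For 44 steps that have a neuronal and a broadly expressed paralog, the ratio of the neuronal gene to its partner was taken within each library, which does not depend on the scaling between libraries. The pairs were chosen as neuronal and broad, so the direction is a description. The ratio was at least 4-fold higher in neuron for 35 pairs and at least 4-fold lower for none, with a median log2 shift of 4.30. With the length trend removed the count of higher pairs was 35 also, though not for all the same pairs. On that scale Ldhb and Ldha passed 4-fold in the other direction, with a log2 shift of -2.33. In 27 pairs the neuronal paralog was the more abundant in neuron and the less abundant in glia. In 12 pairs the neuronal gene was higher and the broad gene lower, in 13 the neuronal gene was higher and the broad gene passed neither way, and in 8 the broad gene was lower without the neuronal one being higher.

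The largest shift was that of the potassium-chloride cotransporters. Slc12a5 and Slc12a4 had 87.0 TPM and 1.75 TPM in neuron, and 1.11 TPM and 159 TPM in glia, a log2 shift of 11.24. Snap25 and Snap23, the plasma membrane SNAREs, had 446 TPM and 3.16 TPM in neuron, and 0.73 TPM and 34.2 TPM in glia (11.09). Dnm1 and Dnm2 shifted by 9.39, Syp and Sypl by 8.75, and Kif5a and Kif5b by 8.54. The lower calls of Snap23, Dnm2, Sypl, Kif5b and Ap3b1 are lost with the length trend removed. Pairs of general machinery shifted as well, such as the AP-3 subunits Ap3b2 and Ap3b1 (7.57), the calcium exchangers Slc8a2 and Slc8a1 (7.499) and the V-ATPase subunits Atp6v1g2 and Atp6v1g1 (4.25), of which Atp6v1g1 itself had 269 TPM in neuron and 233 TPM in glia.

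The 8 pairs with a lower broad gene and no higher neuronal gene came from adhesion, lipid entry and transport among other steps. Ctnna2, the neuronal alpha-catenin, had 55.0 TPM in neuron and 57.6 TPM in glia, while Ctnna1 was 131-fold lower. Cpt1c, a brain relative of Cpt1a, had 58.6 TPM in neuron and 94.3 TPM in glia, and Kif1a, a carrier of vesicle precursors, 132 TPM and 155 TPM. The non-muscle myosins Myh10 and Myh9 were both lower, with 89.4 TPM and 2.98 TPM in neuron, and 643 TPM and 321 TPM in glia, and the Myh10 call is lost with the length trend removed. Of the pairs in glycolysis and the citric acid cycle, Eno2 and Eno1 shifted by 3.999, and the others had shifts below 0. Ldhb and Ldha, the lactate dehydrogenase chains, had 494 TPM and 1267 TPM in neuron, and 1085 TPM and 798 TPM in glia. Their shift was -1.80, and -2.33 with the length trend removed. Pfkm and Pfkl shifted by -1.16, Hk1 and Hk2 by -0.85 and Ogdhl and Ogdh by -0.95. The dynein light chains Dynll2 and Dynll1 had a shift of -0.97, which became 1.38 with the length trend removed.

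**Figure D5:**
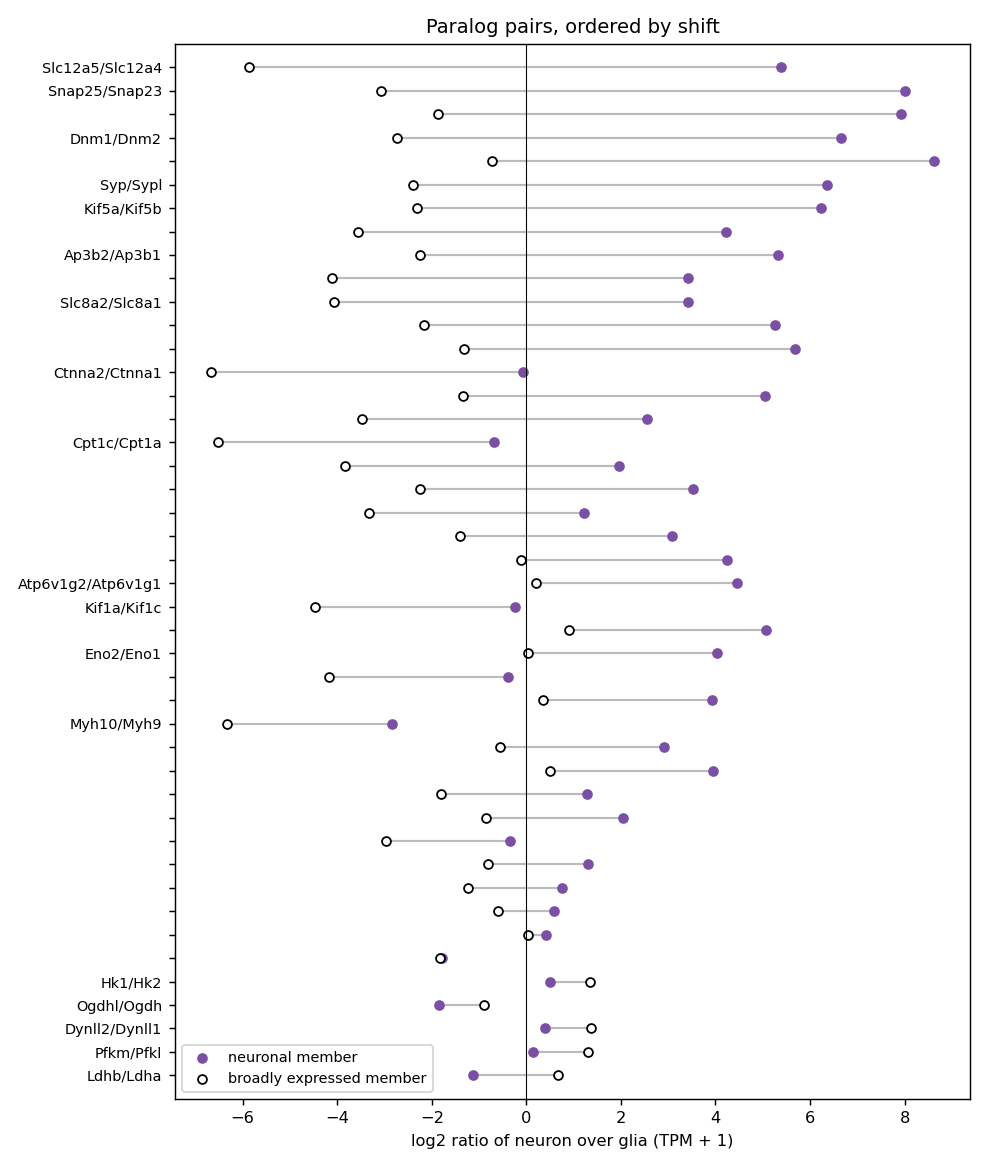
Log2 ratio of neuron over glia for both genes of each of the 44 pairs, ordered by shift, with names beside the pairs named in the text. Purple points are the neuronal paralog and open points the broad one; the purple point lies to the right by at least 2 in 35 pairs, from 11.24 for Slc12a5 and Slc12a4 at the top, and to the left in 5, of which Ldhb and Ldha (-1.80) stand at the bottom.

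The other libraries of the series place these genes further, with no test. Of the 222 list genes higher in neuron 120 were under 1 TPM in both fibroblast libraries and 46 reached 10 TPM in both, of which 31 were metabolism genes. Of the 402 lower genes 297 reached 10 TPM in both fibroblast libraries and 23 were under 1 TPM in both. By domain, 69 of 93 lower adhesion genes and 19 of 35 lower channel genes reached 10 TPM in both. The shares of all members at these levels in the fibroblasts were not computed. The counts therefore do not show whether called genes differ from members in general. In 11 of 222 the level in neuron was at least 4-fold above cortex, hippocampus and cerebellum, and 9 of these belong to metabolism. The share of all members that far above the brain regions was not computed either. Whether the list genes or those of metabolism differ from members in general is therefore not shown. The 11 genes comprised Atp5k, Atp5e, Uqcr11, Uqcrq, Ndufa2, Ndufv3 and Cox6a2 of oxidative phosphorylation, Mgst3, Mvd, Fxyd7 and the active-zone scaffold gene Ppfia3, whose effective length was 0.31 times as long in neuron as in glia. The calls of Atp5k, Atp5e, Uqcr11, Uqcrq, Ndufa2 and Ndufv3 are lost with the length trend removed.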

How the data were processed

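RNA of 8 mouse libraries was sequenced, and the neuron and glia libraries, 1 per group, were compared. Bowtie, RSEM and the build mm10 are named in the submitters' processing notes, with no tool version. Per the file headers, the authors deposited an expected count, a TPM value and an effective length for each gene, all from RSEM. The annotation release and strandedness are not stated in the labels. Among genes with any counts in the library, expected counts were within 0.05 of a whole number for 85.1% in neuron and 84.9% in glia. Of the members 20.6% had an expected count that was not, and reads of such genes may be shared with relatives or overlapping genes. Effective lengths were over 1.5 times apart between the libraries for 11.5% of members.

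Ratios, calls, bounds and the removal of length bins are as given with the results. TMM factors came from edgeR 4.0.16 (R 4.3.3), intervals from scipy 1.17.1, figures from matplotlib 3.10.9 and the rest from pandas 2.3.3 and numpy 2.4.6 under Python 3.11.15. Coordinates came from GENCODE M21 (mm10) by gene identifier, and promoters from RefSeq (GRCm38.p6). Named genes came from the 4 per list and direction with the largest log2 ratio among those called, and from the paralog pairs. Gapdh, Pkm, Ndufa11, Cox7a1, Fermt2, Scamp5, Scg2 and Chgb were chosen after their values were seen, as were the markers named. Of the named genes, Nefl, Gapdh, Slc2a3, Gclm, Gad2, Aldh1l1, Scn2a, Cacng2, Clic1, Trpm2, Pkd1, Pkd2, Piezo1, Fgfr2, Nid2, Vcl, Evl, Icam5, Furin, Dnm2, Syp, Kif5b, Atp6v1g2 and Dynll1 had counts that were not whole and are uncertain to that extent. So did Cacng4, Fgf13, Slco1a4, Fn1 and Pecam1, and the list may not be complete. The genes compared, the lists and the pairs were chosen with earlier results of these data known. Alternatives were 0.1 or 5 TPM added, floors of 1 or 30 TPM, a 2-fold call, TMM factors of counts or of TPM, CPM, TPM without ribosomal protein genes, removal of the length trend, and counts thinned to the smaller library. Calls and intervals were checked on simulated counts with known folds. Some genes that the naming rule would give are not reported here.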

Additional observations from a re-analysis of the deposited data

How the results depend on the processing

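The main counts were 1163 higher and 3412 lower genes, 74.6% of calls being lower. That share was 52.2% with TMM factors of the TPM (1925 and 2102, median log2 ratio -0.002), 60.6% with CPM (1699 and 2616, median -0.29) and 51.4% with the length trend removed (1629 and 1725, median 0.00, rho 0.021). With 5 TPM added 2232 genes were lower, with a floor of 30 TPM 2118, and with a 2-fold call 2090 were higher and 5488 lower. Among domains, higher metabolism genes (40) became 79 with TMM factors of the TPM, 71 with CPM and 94 with a 2-fold call, which made lower ones (67) 113. Higher channel genes (38) became 61 with TMM factors of the TPM, 78 with CPM, 60 with the length trend removed (lower 22 in place of 35), and 20 with a floor of 30 TPM. Higher receptor genes (35) became 57 with CPM, 21 with 5 TPM added, and 53 and 8 with floors of 1 and 30 TPM (lower 45 in place of 78). Higher adhesion genes (32) became 51 with TMM factors of the TPM, 57 with CPM, 58 with the length trend removed and 20 with a floor of 30 TPM. Lower trafficking genes (129) became 82 with TMM factors of the TPM, 60 with the length trend removed and 208 with a 2-fold call. Shifted pairs stayed between 34 and 37 of 44. Of 373 named genes, 331 were called and 211 of those under every setting. With the length trend removed the log2 ratio of Itpr1 turned to 0.058 and that of Atp2b1, not called before, to 2.03. Removing the trend sets the median of all members to 0 by construction. Leaving out a replicate was not possible with 1 library per group, and depth limits genes near 3 counts. No paired analysis was possible because each group holds 1 library.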
